A study of Saccharomyces cerevisiae with 25 samples.

Results

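The ATG genes of budding yeast (Saccharomyces cerevisiae) encode the machinery of autophagy, in which a double membrane closes around part of the cytoplasm and delivers it to the vacuole for breakdown. The genes described here are all rows named ATG and a number that were listed in at least 1 library. Of 28 such rows, 24 were listed in 13 or more libraries, fewer than the 30 that the stricter choice needed, so the 26 rows listed in any library were taken, of 5718 named genes listed in all. ATG16 and ATG29 were blank in every library and are not among them.

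The libraries came from a strain of background BY4741 that carries pho84pr-YFP, a fluorescent reporter driven by the promoter of a phosphate transporter gene, and is labelled delta-vip1, a deletion of an inositol pyrophosphate kinase gene. That genotype was shared by the 1 library of cells in high phosphate medium (0 min) and the 24 libraries sampled without phosphate, from 15 to 360 min at intervals of 15 min. No strain with intact VIP1 was analysed here, and with 1 library per time and no label of separate cultures the spread was read from the scatter of libraries around a smooth curve, so p-values measure the spread between these libraries, which may be technical. Times without phosphate were grouped as early (15 to 120 min), middle (135 to 240 min) and late (255 to 360 min), with 8 libraries each.

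In autophagy, a kinase complex built on ATG1 starts the process, a phosphatidylinositol 3-kinase complex marks the site, and vesicles carrying ATG9 supply the first membrane. A pair of ubiquitin-like systems then attaches ATG8 to a membrane lipid, receptors bind selected cargo to ATG8, and the vacuole degrades what is delivered. In yeast autophagy is best known as a response to nitrogen starvation, under the control of TOR kinase and protein kinase A, and ATG8 is the gene whose transcription has been studied most, with the repressor Ume6 acting on it.

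Levels are in RPM, reads per 1000000 reads in the library, deposited as log2. Libraries held 413033 to 4162690 reads (median 1417344), as read back from the spacing of the values, and a gene was blank where it had under 10 reads. The 345 min library was the shallowest, listed 4553 genes and had a floor of 24.2 RPM. VIP1 was listed in all 25 libraries, between 9.69 and 55.7 RPM, so the counts did not show the labelled deletion. The labels do not say what part of the gene was removed. The late change of VIP1 was -0.01 (SE 0.48, limma adjusted p = 0.991), which has no bearing on a deletion shared by all libraries. Reads of ribosomal protein genes (RPL and RPS) took 32.0% of the 0 min library and 4.28% to 5.08% of the late ones, a shift that raises the RPM of every other gene.

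Promoter letters were read first, since several regulators of ATG transcription have known sites. The 500 bases before the annotated start codon were searched on both strands for GGCGGC (the URS1 core bound by Ume6), GATAAG (bound by GATA factors), AGGGG (the stress element, also bound by Rph1), TGACTCA (Gcn4) and CACGTG (Pho4, the phosphate regulator). The stretches shown are those where the URS1 core occurred among the ATG genes, with a GATAAG near the start codon of the same genes. ATG9 was added as an example of other genes with a GATAAG near the start codon. Capitals mark the searched motifs, build R64 (RefSeq), read 5′ to 3′ on the strand of the gene.
ATG8, chrII:80846-80874, minus strand: ggttattttcGGCGGCGGCaaaaatattt
ATG8, chrII:80777-80806, minus strand: gttgaggAGGGGattGATAAGagaatctaa
ATG19, chrXV:168672-168699, plus strand: cgaggtaattgcGGCGGCacttgcttca
ATG19, chrXV:168630-168655, plus strand: atatgagtttGATAAGgtgtatcaga
ATG9, chrIV:184859-184884, plus strand: atctcactttGATAAGaagacattta

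GGCGGC occurred in 2 of 26 ATG promoters, those of ATG8 and ATG19, and in 9.54% of 6019 promoters of the same length. In ATG8 it occurred at -133 and -130, overlapping by 3 bases, and in ATG19 at -43, counted from -1 at the base before the start codon. GATAAG occurred in 10 of 26 (38.5%) against 22.7% of all promoters. Besides ATG9 (-56), genes with a GATAAG near the start codon included ATG4 (-25), ATG33 (-49) and ATG32 (-62), whose stretches are not shown. AGGGG occurred in 14 of 26 (53.8%) against 34.0%, with the ATG8 promoter holding it at -91 and -68. TGACTCA was found in ATG18 only among the 26 (3.99% of all promoters), and CACGTG in 3, ATG20, ATG4 and ATG13 (6.21% of all promoters). None of the 5 motifs occurred in the windows of 8 genes, ATG1, ATG5, ATG7, ATG11, ATG17, ATG21, ATG22 and ATG23. These counts are descriptions of letters and were not tested.

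Most ATG genes were at higher levels late in phosphate starvation than in high phosphate, with ATG8, ATG22 and ATG19 the farthest apart, while none passed the test in the early hours. A change was called where the limma adjusted p (Benjamini-Hochberg, over all genes tested) was under 0.05 and the log2 change was at least 1. Late against high phosphate, 18 of the 23 ATG genes that could be tested rose and 0 fell, with a median log2 change of 1.73. Over all 5230 genes tested, 21.1% rose and 6.85% fell, with a median of 0.41. Scaling each library to its reads outside RPL and RPS genes brings the median of all genes to -0.09. With that scaling 13 of 23 rose (9.66% of all genes), 1 fell (ATG27, beside 12.9% of all genes) and the median over ATG genes was 1.23. The 13 were ATG2, ATG3, ATG4, ATG7, ATG8, ATG9, ATG14, ATG17, ATG19, ATG22, ATG32, ATG33 and ATG34. Centring each library on its median gave the same 13 and 1, against 9.81% and 12.8% of all genes. In a bulk culture a change in every cell and a change in a share of the cells cannot be told apart, nor can RPM show the amount of RNA per cell. High phosphate was sampled at 0 min only, so loss of phosphate and time in culture cannot be told apart either.

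**Figure D1:**
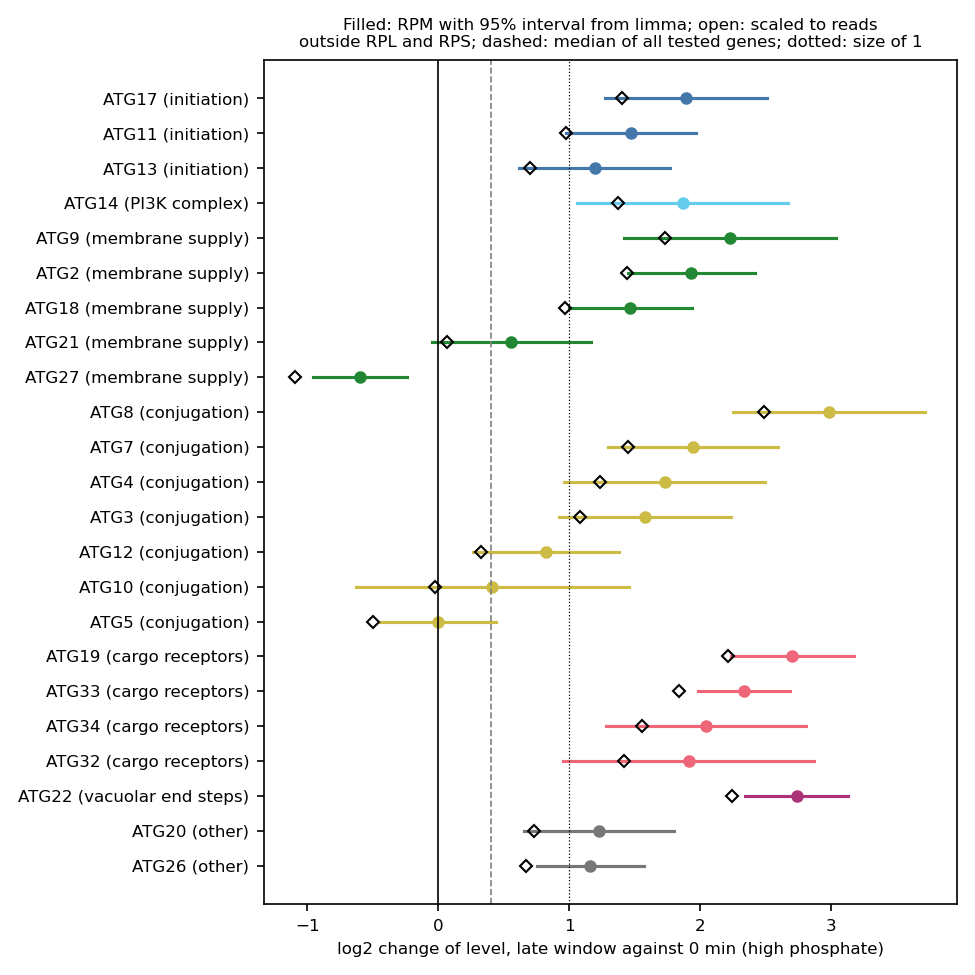
Log2 change of each tested ATG gene, late window (255 to 360 min) against the 0 min library, with 95% intervals from limma (filled points, coloured by role) and the value after scaling to reads outside RPL and RPS genes (open diamonds). The filled points run from -0.60 for ATG27 to 2.98 for ATG8, with the receptors and ATG22 all above 1.9, ATG21 and ATG10 at 0.56 and 0.41 and ATG5 close to 0.

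Early against high phosphate, 0 of 23 ATG genes passed in either direction, beside 0.0765% of all genes higher and 0.0382% lower, and their median change was 0.06. At an unadjusted limma p under 0.05, 3 were higher (ATG2, ATG19 and ATG22, by 0.41 to 0.51) and 0 lower. In the middle window 6 of 23 rose (ATG2, ATG3, ATG8, ATG17, ATG19 and ATG22) and 0 fell, beside 6.33% of all genes higher and 4.46% lower. That middle count was 3 after scaling to reads outside RPL and RPS genes (3.71% of all genes) and also 3 when the curve was replaced by a mean per window (1.99% of all genes). Leaving out the 135 min library or the 165 min library gave 10 in either case, while the count over all genes went from 331 to at most 403. Late against early, 19 of 24 rose and 0 fell, beside 21.2% of all genes higher and 4.66% lower, with a median of 1.44. In the middle and late comparisons ATG27 was the 1 gene lower at an unadjusted p under 0.05. Under either scaling 8 of 24 rose late against early, ATG4, ATG7, ATG8, ATG9, ATG19, ATG22, ATG33 and ATG34, beside 7.83% and 7.91% of all genes. A joint test of the whole curve without phosphate, with a fitted range of at least 1, called 20 of 24, beside 42.0% of all genes.

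Separation of the libraries in RPM gave a similar picture without a model. It was not repeated under either scaling, so the shift in ribosomal protein reads enters it too. In 15 of 24 ATG genes all 8 late libraries were listed and lay above the 0 min library and all 8 early ones, beside 31.8% of all genes, and in 9 they overlapped or a blank left the order unknown. The 9 were ATG3, ATG5, ATG10, ATG12, ATG14, ATG21, ATG23, ATG27 and ATG32. In 0 of 24 did every late library lie below, and the share of all genes in that direction was not counted.

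**Figure D2:**
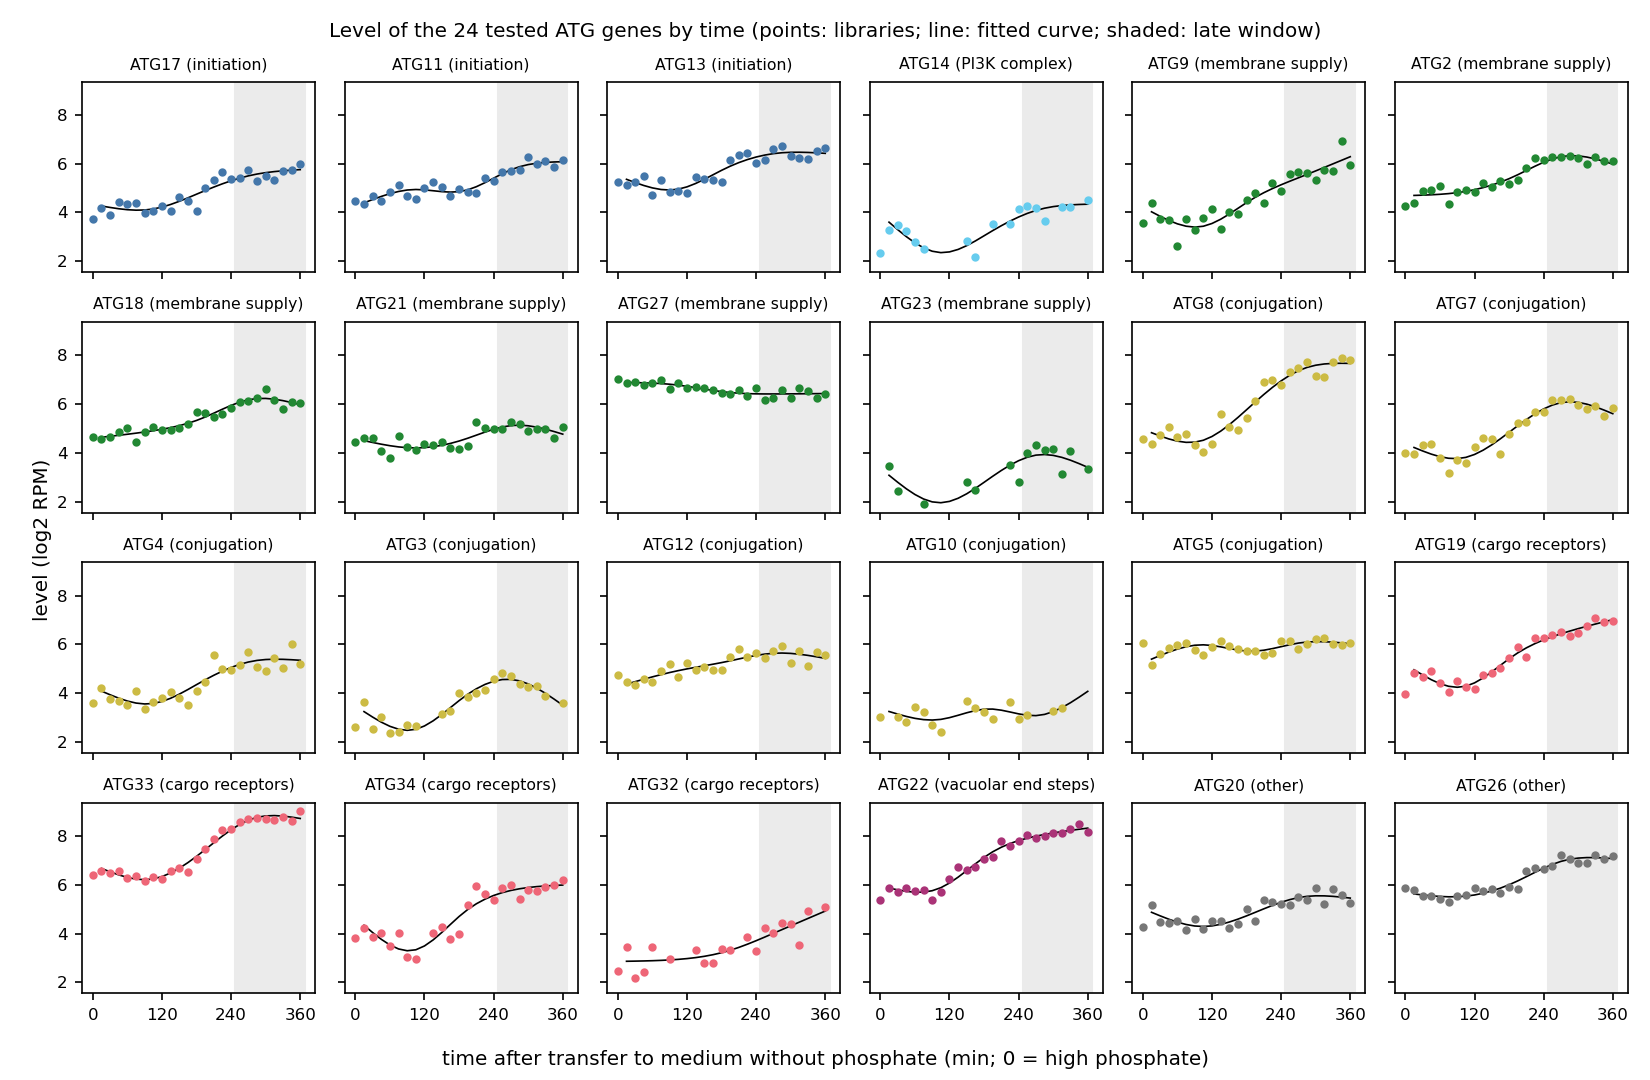
Level (log2 RPM) of the 24 tested ATG genes against time, 1 point per library, with the fitted curve over 15 to 360 min and the late window shaded. Many curves are flat or dip up to about 105 min and then climb, and ATG27 drifts down.

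The initiation genes form the scaffold and kinase that start autophagosome formation. All 3 that could be tested rose late against high phosphate, beside 21.1% of all genes. After either scaling only ATG17 stayed called, beside 9.66% and 9.81% of all genes. ATG17, the scaffold of starvation-induced autophagy, was at 13.2 RPM at 0 min. It ranged from 14.9 to 21.4 RPM in the early libraries (median 18.5) and from 39.2 to 64 RPM in the late ones (median 48.2). Each late library was above each earlier one of these groups, and the log2 change was 1.89 (SE 0.30, limma adjusted p = 6.09e-06) against high phosphate and 1.46 (SE 0.14) against early. ATG11, the scaffold of selective routes, rose by 1.47 (SE 0.24) and 1.17 (SE 0.11) on the same comparisons. ATG13, the regulatory subunit of the kinase, rose by 1.20 (SE 0.28) and 1.36 (SE 0.13). After scaling to reads outside RPL and RPS genes the change against high phosphate was 1.40 for ATG17, 0.98 for ATG11 and 0.70 for ATG13, the last 2 below the required size.

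ATG1, the kinase itself, stayed close to the detection limit. It was listed in 4 libraries only, each time from 11 to 14 reads. Its level was 8.61 RPM in the 15 min library, 8.43 RPM in that of 195 min, 10.2 RPM in that of 255 min and 13.8 RPM in that of 330 min. In the deepest library (165 min), where the floor was 2.40 RPM, it was blank, so its course could not be resolved at this depth. ATG29 was blank everywhere, and ATG31, their partner in the scaffold, is listed in the file under the older name CIS1 and is given with the other genes further on.

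ATG14, the subunit that directs phosphatidylinositol 3-kinase to autophagy, was at 5.08 RPM (10 reads) at 0 min. It was listed in 5 early libraries at 5.63 to 11.3 RPM (median 9.38) and in 6 late ones at 12.4 to 22.7 RPM (median 18.6), and it was blank at 300 and 345 min. The listed late values were above all listed earlier ones of those groups. At the 300 min blank the floor was 6.83 RPM, below the early median, so late and early levels of ATG14 overlapped. Its log2 change was 1.87 (SE 0.39, limma adjusted p = 4.11e-04) against high phosphate and 1.42 (SE 0.22) against early, from the 17 libraries that list it. With blanks set to 5 reads the first of these was 1.46 and missed the threshold (limma adjusted p = 0.0758). With 10 reads, counting alone gives an error of 0.46 (log2), and 23.5% of its listed values were fractional reads.

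The membrane supply genes did not move as one. ATG2, which transfers lipids into the growing membrane, was at 19.3 RPM at 0 min. It ranged from 20.4 to 34.0 RPM early (median 28.8) and from 62.6 to 78.3 RPM late (median 75.6). These groups did not overlap, and the late libraries lay within a narrow band. Its change was 1.93 (SE 0.24, limma adjusted p = 7.76e-08) against high phosphate and 1.42 (SE 0.11) against early.

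ATG9, the membrane protein of the seed vesicles, rose by 2.23 (SE 0.40) and 2.16 (SE 0.18), with a late median of 50.4 RPM and a highest value of 121 RPM in the shallow 345 min library. ATG18, a phosphoinositide-binding partner of ATG2, rose by 1.46 (SE 0.23) and 1.34 (SE 0.10), and neither was called under either scaling (0.97 and 0.80 after scaling to reads outside RPL and RPS genes). ATG23, which helps ATG9 vesicles form, had no 0 min value and rose late against early by 1.41 (SE 0.32) over the 14 libraries that list it. ATG21, a second phosphoinositide-binding protein of this family, had changes of 0.56 (SE 0.30, limma adjusted p = 0.117) and 0.70 (SE 0.13), under the required size.

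ATG27, a membrane protein of the ATG9 pathway, went the other way. Its level was 129 RPM at 0 min, 98.0 to 126 RPM early (median 117) and 70.7 to 101 RPM late (median 81.4). The late libraries were all below the 0 min one and overlapped the early ones at the edge. Its log2 change was -0.60 (SE 0.18, limma adjusted p = 0.00595), short of the required size of 1, and late against early it was -0.41 (SE 0.08). Scaled to reads outside RPL and RPS genes the change against high phosphate was -1.09 and was called. Its values by library are given because its direction stood out once they were seen.

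Among the conjugation genes, ATG8 and the enzymes that process it rose, while those of the ATG12 branch did not pass late against high phosphate. ATG8, the ubiquitin-like protein that coats the membrane, was at 23.4 RPM at 0 min. It ranged from 16.3 to 33.5 RPM early (median 22.7), from 30.3 to 128 RPM in the middle libraries and from 136 to 237 RPM late (median 194). Late and earlier groups were well apart, with the lowest late library at 136 RPM and the highest early one at 33.5 RPM. The log2 change was 2.98 (SE 0.36, limma adjusted p = 5.78e-08) against high phosphate and 2.96 (SE 0.16) against early, the largest among the ATG genes in both comparisons and the 73rd largest of all 5230 genes in the first.

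The activating enzyme ATG7, shared by both systems, rose by 1.95 (SE 0.32) against high phosphate and 2.003 (SE 0.14) against early. ATG4, the protease that trims and recycles ATG8, rose by 1.73 (SE 0.37) and 1.60 (SE 0.17). ATG3, which transfers ATG8 to lipid, rose by 1.58 (SE 0.32) and 1.45 (SE 0.15) over the 22 libraries that list it, from 12 reads at 0 min.

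In the ATG12 branch, ATG12 itself had a change of 0.82 (SE 0.27, limma adjusted p = 0.0134) against high phosphate and 0.87 (SE 0.12) against early, both short of the required size. ATG10, its transferring enzyme, had changes of 0.41 (SE 0.50) and 0.42 (SE 0.35) over 16 libraries, and the first became -0.03 after either scaling. Only 3 of the 8 late libraries listed ATG10, at 11 to 14 reads, so its late level was not resolved at this depth. ATG5, to which ATG12 is joined, was at 67.1 RPM at 0 min, 36.0 to 67.1 RPM early (median 56.5) and 56.3 to 76.6 RPM late (median 66.1), so its groups overlapped. Its change against high phosphate was between -0.44 and 0.44 (95% interval from limma), and late against early it was 0.29 (SE 0.10), or -0.26 after scaling to reads outside RPL and RPS genes. The difference between the branches was not tested.

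All 4 genes of selective cargo recognition among the rows named ATG rose late against high phosphate, beside 21.1% of all genes. Receptors listed under another name are given further on. Of those, YOR152C (ATG40) and CUE5 rose, while YJL185C (ATG36) was not called, with a change of 0.38 (SE 0.35). YLR312C (ATG39) could not be tested against high phosphate. ATG33, a mitochondrial protein needed for mitophagy that was grouped with the receptors, was at 84.3 RPM at 0 min. It ranged from 70.7 to 95.4 RPM early (median 81.2) and from 378 to 513 RPM late (median 414). The late libraries were tightly grouped and far above the rest, with a log2 change of 2.33 (SE 0.17, limma adjusted p = 3.24e-12) against high phosphate and 2.36 (SE 0.08) against early.

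ATG19, the receptor of the cytoplasm-to-vacuole route that carries aminopeptidase I, rose by 2.70 (SE 0.23) and 2.19 (SE 0.10), with 15.7 RPM in high phosphate and a late median of 100.3 RPM. ATG34, a related receptor for alpha-mannosidase, rose by 2.05 (SE 0.37) and 2.23 (SE 0.17) over the 24 libraries that list it. The 2 genes lie on chromosome XV on the same strand, with 1774 bases between them. ATG32, the mitophagy receptor, rose by 1.91 (SE 0.46) and 1.48 (SE 0.24) over 20 libraries, from 11 reads at 0 min. All 4 genes of this group remained called against high phosphate under both scalings, beside 9.66% and 9.81% of all genes. ATG32 missed the required size late against early (0.94 after scaling to reads outside RPL and RPS genes).

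At the vacuole, ATG22, which exports amino acids released by breakdown, was at 42.2 RPM at 0 min. It ranged from 42.0 to 75.5 RPM early (median 54.3), from 97.1 to 221 RPM in the middle libraries and from 244 to 356 RPM late (median 278). Even its middle libraries lay above all early ones, and the log2 change was already 1.76 (SE 0.19) in the middle window and 2.74 (SE 0.19, limma adjusted p = 1.30e-12) late. ATG15, the lipase that opens the delivered vesicles, was listed in the 165 min library only, at 2.40 RPM (10 reads).

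Of the 2 remaining genes, ATG26, a sterol glucosyltransferase that yeast autophagy can do without, was at 58.9 RPM at 0 min, 39.8 to 58.9 RPM early (median 46.2) and 108 to 150 RPM late (median 133). The late libraries did not overlap the others. It rose by 1.16 (SE 0.20, limma adjusted p = 1.78e-05) against high phosphate and 1.49 (SE 0.09) against early, and the first was 0.67 after scaling to reads outside RPL and RPS genes. ATG20, a sorting nexin, rose by 1.23 (SE 0.28) and 1.00 (SE 0.13), and neither was called under either scaling (0.73 and 0.46 after scaling to reads outside RPL and RPS genes). The second value sits on the threshold, and leaving out 1 library moved it between 0.95 and 1.10.

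Levels were also compared per length of gene. Late, ATG33 stood at 708 RPM per kb, ATG8 at 518, ATG22 at 178 and ATG27 at 103 (geometric means over listed libraries), and the next was ATG12 at 83.4. At 0 min the order differed, with ATG27 at 158 RPM per kb, ATG33 at 142, ATG5 at 75.8 and ATG8 at 66. ATG2, ATG32 and ATG23 were the lowest of the tested genes late, between 10.7 and 15.2 RPM per kb. Genes with blanks (ATG3, ATG10, ATG14, ATG23, ATG32 and ATG34) are shown by their listed libraries, which overstates their level.

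**Figure D3:**
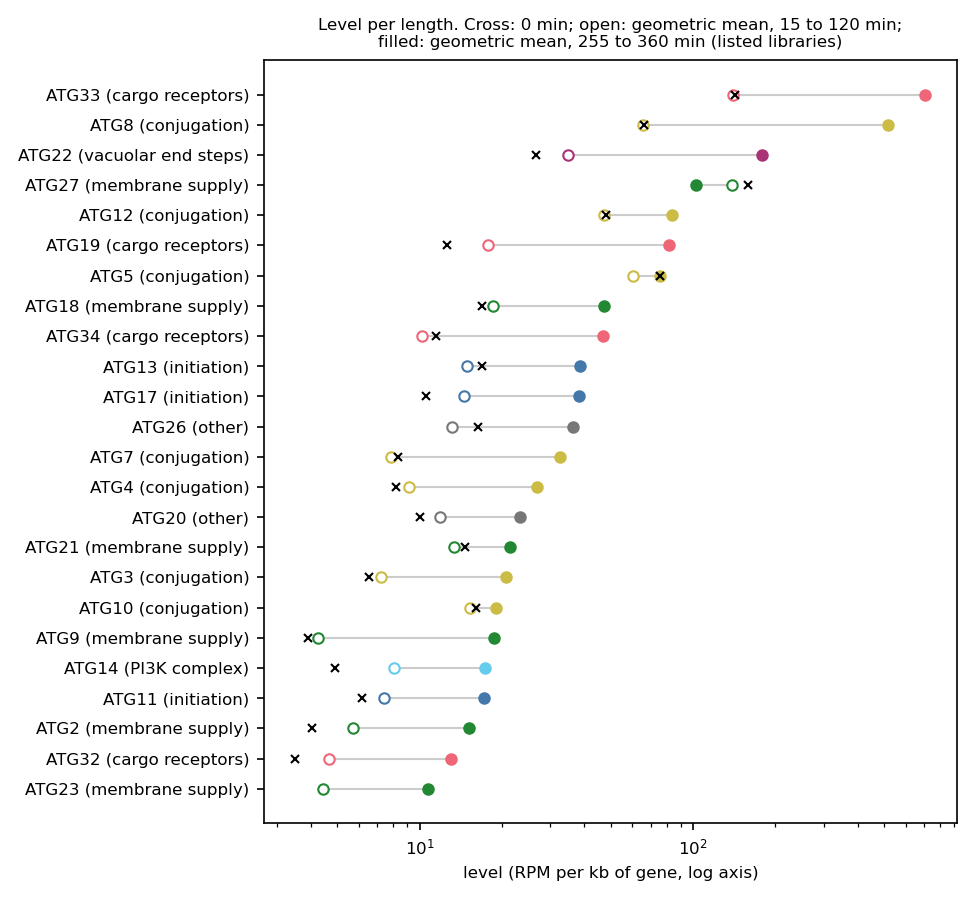
Level per kb of gene (RPM per kb, log axis) of the tested ATG genes at 0 min (cross), as geometric mean of the early libraries (open) and of the late libraries (filled), sorted by the late level. ATG8 and ATG33 end at 518 and 708 RPM per kb, well apart from the rest, while ATG27 moves left and ATG5 and ATG10 barely move.

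The timing was followed in the 18 ATG genes listed in every library. Their median change from 0 min stayed between -0.22 and 0.32 up to 165 min, was 0.57 at 180 min and 0.95 at 195 min, passed 1 at 210 min (1.10) and was 1.73 at 270 min and 1.65 at 360 min. Over the 4334 genes listed in all libraries the median was 0.19 in the 195 min library, 0.39 in that of 270 min and 0.35 in that of 360 min. The onset of a gene was taken as the start of the first run of 3 listed times that differed from its 0 min level by 1 log2 unit or more.

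The first was ATG22, whose onset fell at 135 min. ATG19 followed at 165 min, then ATG3 at 180 min. A group of 7 had its onset at 195 min, namely ATG2, ATG7, ATG8, ATG14, ATG17, ATG33 and ATG34. ATG4 came at 210 min, ATG9 followed at 225 min, and ATG18 was next at 240 min. The last were ATG11 and ATG32 with 255 min, and ATG13, ATG20 and ATG26 with 270 min. The median over the 18 called ATG genes was 195 min, and it was 210 min over the 1050 of 1105 called genes with an onset. Against the mean of 0 to 60 min the median was 210 min for the ATG genes and also 210 min over the 868 of 1105 called genes with an onset, so the earlier median of the ATG genes was seen only against the 0 min value. With this reference the onsets included ATG22 at 165 min and ATG19 at 225 min, and ATG20 had none, so the order of single genes leans on the 0 min library. These times are a description with no test.

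**Figure D4:**
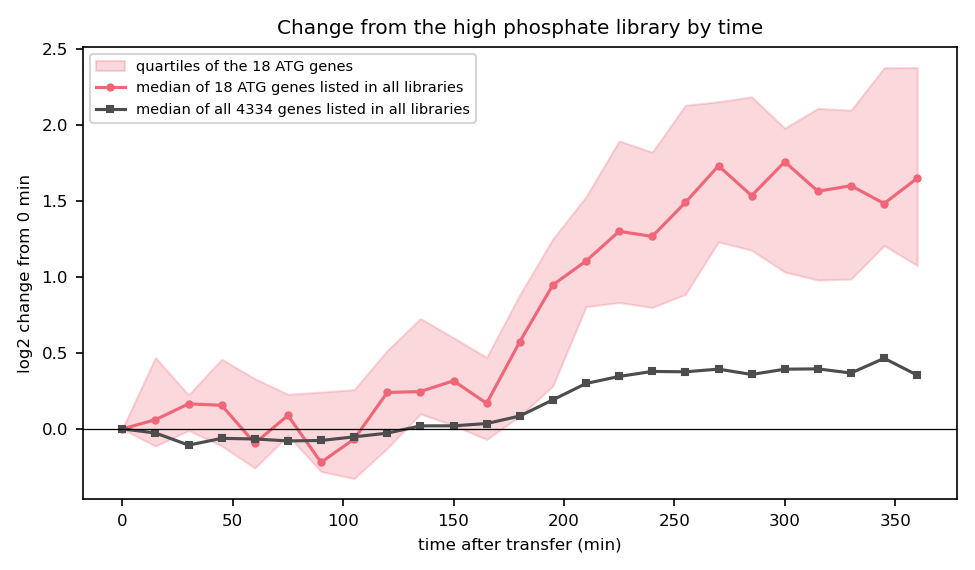
Median log2 change from the 0 min library by time for the 18 ATG genes listed in all libraries (red, with the quartiles shaded) and for all 4334 such genes (grey). The red line leaves the grey one after 165 min and stays between 1.48 and 1.76 from 270 min.

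Across the 24 libraries without phosphate, the ATG genes listed in all libraries varied together, with a median Pearson r of 0.82 over 153 pairs (-0.79 to 0.98). These libraries share 1 time course and 1 shift in ribosomal protein reads, so the coefficients describe a common trend. The courses most like that of ATG8 were those of ATG33 (r = 0.98), ATG22 (r = 0.96), ATG13 (r = 0.96) and, over 23 libraries, ATG34 (r = 0.96). ATG5 had r = 0.46 and ATG27 had r = -0.73.

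Some further ATG genes are listed under another name and were not part of the 26. A list of 5 is given here, while ICY2 (ATG41) and YBR139W (ATG42) were counted with the partner genes further on. Late against high phosphate, 2 of the 4 with a 0 min value rose, beside 21.1% of all genes. YOR152C (ATG40 in RefSeq), a receptor for breakdown of the endoplasmic reticulum, rose by 2.06 (SE 0.30), with 24.4 RPM in high phosphate and a late median of 94.6 RPM. CIS1 (ATG31) rose by 1.20 (SE 0.33), or 0.71 after scaling to reads outside RPL and RPS genes. YLR211C (ATG38), of the phosphatidylinositol 3-kinase complex, had a change of 0.96 (SE 0.41) and YJL185C (ATG36), a peroxisome receptor, of 0.38 (SE 0.35). Late against early all 5 rose, beside 21.2% of all genes, YLR312C (ATG39), a receptor of the nuclear envelope, by 1.84 (SE 0.26).

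All 4 genes of selective vacuolar cargo rose late against high phosphate, beside 21.1% of all genes, and 3 of them after either scaling, beside 9.66% and 9.81%. AMS1, the alpha-mannosidase carried by ATG19 and ATG34, rose by 3.998 (SE 0.38) and went from 8.13 RPM in high phosphate to between 90.2 and 191 RPM late. LAP4, the aminopeptidase I carried by ATG19, rose by 1.94 (SE 0.28). LAP3, a cysteine aminopeptidase, rose by 1.69 (SE 0.17), and YHR113W (APE4), an aspartyl aminopeptidase, by 1.18 (SE 0.24), or 0.69 after scaling to reads outside RPL and RPS genes.

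Of 19 partner genes that bear other names in the file, 5 rose (26.3%, beside 21.1% of all genes) and 0 fell. Their median was 0.67, and the share over the whole list was near that of all genes. The list is mixed, since it includes ICY2 and YBR139W, which also have ATG names. After either scaling 3 of the 19 rose (ICY2, YBR139W and VPS30), beside 9.66% and 9.81% of all genes, with a median of 0.18. ICY2 (ATG41 in RefSeq) rose by 3.34 (SE 0.26), with 5.59 RPM (11 reads) in high phosphate and 42.4 to 74.9 RPM late. Much of that change was present early, at 1.92 (SE 0.26, limma adjusted p = 6.76e-05) against high phosphate, and late against early it was 1.42 (SE 0.12). YBR139W (ATG42), a vacuolar carboxypeptidase, rose by 1.82 (SE 0.23). VPS30, a subunit shared with the ATG14 complex, rose by 1.73 (SE 0.32), from 15 reads at 0 min. Its change was 0.93 (SE 0.32) early against high phosphate and 0.80 (SE 0.15) late against early, neither called. CUE5, a ubiquitin-binding receptor, rose by 1.04 (SE 0.20), or 0.54 after scaling to reads outside RPL and RPS genes.

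Of 14 regulators of ATG transcription, 11 could be tested and 4 rose (36.4%, beside 21.1% of all genes), with a median of 0.53 beside 0.41 over all genes and 0 lower. After either scaling 3 of the 11 rose, beside 9.66% and 9.81% of all genes, with a median of 0.04. MSN4, a stress activator, rose by 2.23 (SE 0.42), RIM15, a starvation kinase that relieves Ume6 repression, by 1.99 (SE 0.32), and GAT1, a GATA activator, by 1.95 (SE 0.25). SIN3, of the histone deacetylase that Ume6 recruits, had a change of 0.53 (SE 0.17), short of the required size. Of 14 genes of kinases acting on autophagy, 4 rose (28.6%, beside 21.1% of all genes) and 0 fell, with a median of 0.84. After either scaling 1 rose, beside 9.66% and 9.81% of all genes, so these counts were near those of all genes. BCY1, the regulatory subunit of protein kinase A, rose by 1.16 (SE 0.17), or 0.67 after scaling to reads outside RPL and RPS genes. YAK1, a kinase opposed by protein kinase A, rose by 1.20 (SE 0.33), or 0.70 after that scaling. PHO85, the kinase of the phosphate pathway, had a change of 0.89 (SE 0.18), short of the required size.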

How the data were processed

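The members and the gene lists were chosen with earlier results of these data known. The deposited values are log2 RPM, whose antilogs sum to 1000000 per library. Bowtie and build R64 are named per the submitters' processing notes, and no source used here gives the counting program or the strand setting. The lowest value of a library was read as 10 reads, which makes 94.1% of values whole within 0.01 reads, and blanks were left missing. Of 6701 rows, 51 without a name held no value. Genes listed in at least 13 libraries and in at least 3 of each window were kept (5298, of which 5230 had a 0 min value).

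Tests were made in limma 3.58.1 (R 4.3.3), with a trend in the variance. The model held a 0 min indicator and a natural spline (4 degrees of freedom) over 15 to 360 min, and contrasts compared fitted window means. The scripts were tested on simulated data with known changes. All ATG genes are named, values by library are given for the largest test statistic in each role group, and of each other list the 4 genes with the largest test statistic are named, except 1 that is not reported here. Alternatives were splines with 3 or 6 degrees of freedom, window means, both scalings, no filter, blanks at 5 reads and genes listed in all libraries. Others were a minimum change of 0.58, array weights, and libraries without phosphate left out singly or in pairs. Motifs and coordinates come from RefSeq R64, 1-based. Figures used Python 3.11.15 and matplotlib 3.10.9.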

Additional observations from a re-analysis of the deposited data

How the results depend on the processing

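The count of 18 ATG genes higher late against high phosphate was 18 with each single library without phosphate left out (1089 to 1124 of all genes). The 0 min library, the only reference of that comparison, was kept in every fit. Late against early the count was 17 to 19 (1099 to 1160 of all genes). In the joint test it was 19 to 20 (2186 to 2341 of all genes) and in the middle window 5 to 10 (267 to 403 of all genes). Beyond single libraries, the middle count was 3 with plain window means and 3 after scaling to reads outside RPL and RPS genes, and late against early it was 8 under either scaling. The count of ATG genes lower late against high phosphate was 1 (ATG27) when libraries were centred on their median, beside 12.8% of all genes. It was 1 after scaling to reads outside RPL and RPS genes, beside 12.9% of all genes, and 1 with a minimum change of 0.58. The median onset was 195 min, or 210 min against the mean of 0 to 60 min. Changes with the opposite sign were those of ATG10 against high phosphate (-0.035 centred, -0.025 scaled, -0.28 with blanks at 5 reads) and against early (-0.11 centred, -0.070 scaled), and of ATG5 against early (-0.25 centred, -0.26 scaled). The ATG5 change against high phosphate is near 0 and took either sign, at 0.00091 without the 15 and 30 min libraries, 0.012 without the 210 and 345 min libraries (chosen after seeing the data) and -0.033 to 0.024 with single libraries left out. Of the other alternatives of a gene's change, 783 against high phosphate and 808 against early left both direction and call as they were, while 11 and 37 lost the call and 4 and 2 gained it. Causes were not tested beyond the scaling itself. Genes near 10 reads (ATG1, ATG3, ATG10, ATG14, ATG15, ATG23 and ATG32) are limited by depth, and the single 0 min library enters every change against high phosphate. No paired analysis was possible, since there was 1 library in high phosphate and 1 per time without phosphate.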
